A study of Mus musculus with 23 samples.

Results

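Primary mammary tumours of mice given doxorubicin followed by zoledronic acid (DZ, labelled Dox+Zol, 6 tumours) were compared with tumours of mice given placebo (P, 6 tumours), which are 12 of the 23 tumours of the series. All 770 gene rows of the table entered the comparison and only the negative and positive control rows were left out. The tumours grew from E0771 luc2 GFP cells, a mammary carcinoma line of C57BL/6 origin that carries luciferase and a green fluorescent protein and was selected for homing to bone, so that every tumour derives from 1 selected line. The cells were injected into the mammary ducts of C57BL/6J female mice aged 6 to 8 weeks, which have an intact immune system, and the methods give the placebo as a daily subcutaneous injection, doxorubicin as a weekly intravenous injection and zoledronic acid as a subcutaneous injection on the next day. The other tumours came from mice given Anakinra, which blocks the receptor of interleukin-1, alone (A, 5 tumours) or with both drugs (ADZ, 6 tumours). Total RNA of whole tumours was hybridised to the nCounter panCancer mouse immune profiling panel, in which barcoded probes are counted without amplification, and the values are normalized signals on the log2 scale. By the methods and legends the 6 DZ tumours came from as many mice. Whether each P tumour came from a separate mouse is not stated in the sources used here, so that p-values measure the spread between these tumours.

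Doxorubicin is an anthracycline that traps topoisomerase II on DNA and causes double-strand breaks, to which cells answer through p53 and its targets or by apoptosis. Anthracyclines are also known for releasing danger signals and for inducing type I interferon in dying tumour cells. Zoledronic acid is a bisphosphonate that blocks the mevalonate pathway in osteoclasts, the cells that resorb bone, and can act on macrophages, which belong to the same lineage. The panel holds genes of each of these responses beside markers of the immune and stromal cells of the tumour, and the comparison asks what the pair of drugs did to them without Anakinra.

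No gene passed an adjusted p of 0.05 between DZ and P by limma, whether the placebo tumour P4 was kept or left out (0 of 770, 0% called in both, with a smallest adjusted p of 0.9997 and 0.896). At an unadjusted p under 0.05 there were 12 genes with P4 (1.56% of the panel) and 27 without it (3.51%), all of them higher in DZ, and 9 genes were in both sets. Of these genes 1 of 12 and 4 of 27 were not above the background set by the negative controls in any P or DZ tumour. Most differences were smaller than the half-width of their 95% interval, which had a median of 0.57 with P4 and 0.54 without it. The 95% confidence interval of DZ minus P lay within 2-fold in either direction for 572 genes with P4 and for 554 genes without it. No gene had DZ and P values that did not overlap when all 12 tumours were used, and without P4 there was 1 such gene (0.13%). That gene, higher in DZ, belongs to the list of B cell and lymphoid follicle genes. P4 was the highest tumour for all 26 measured genes of that list.

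P4 stood apart from the other tumours, and it is the reason for giving the differences both ways. It was the highest of the 12 tumours in 319 genes (41.4%), and its correlations with the other 11 over the panel were 0.852 to 0.945, against 0.933 to 0.991 among those 11. The genes of B cells and lymphoid follicles were highest in P4 in 26 of 26 cases, and 23 of 27 T cell genes were also highest there. Cd79b, a chain of the B cell receptor, was 10.59 in P4 and 4.16 to 5.90 in the other placebo tumours. Ccl21a, a chemokine that draws T cells and dendritic cells to lymph nodes, was 11.01 in P4 and 4.15 to 5.60 in the other placebo tumours. Cfd, the adipocyte protease adipsin, was 14.10 in P4, but it also ran from 3.78 to 12.40 among the other placebo tumours and from 4.73 to 11.87 in DZ. These are bulk tumours, in which fewer cells of a type and less RNA per cell cannot be told apart, and the part of lymphoid or fat tissue in the values of P4 was not tested.

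**Figure D1:**
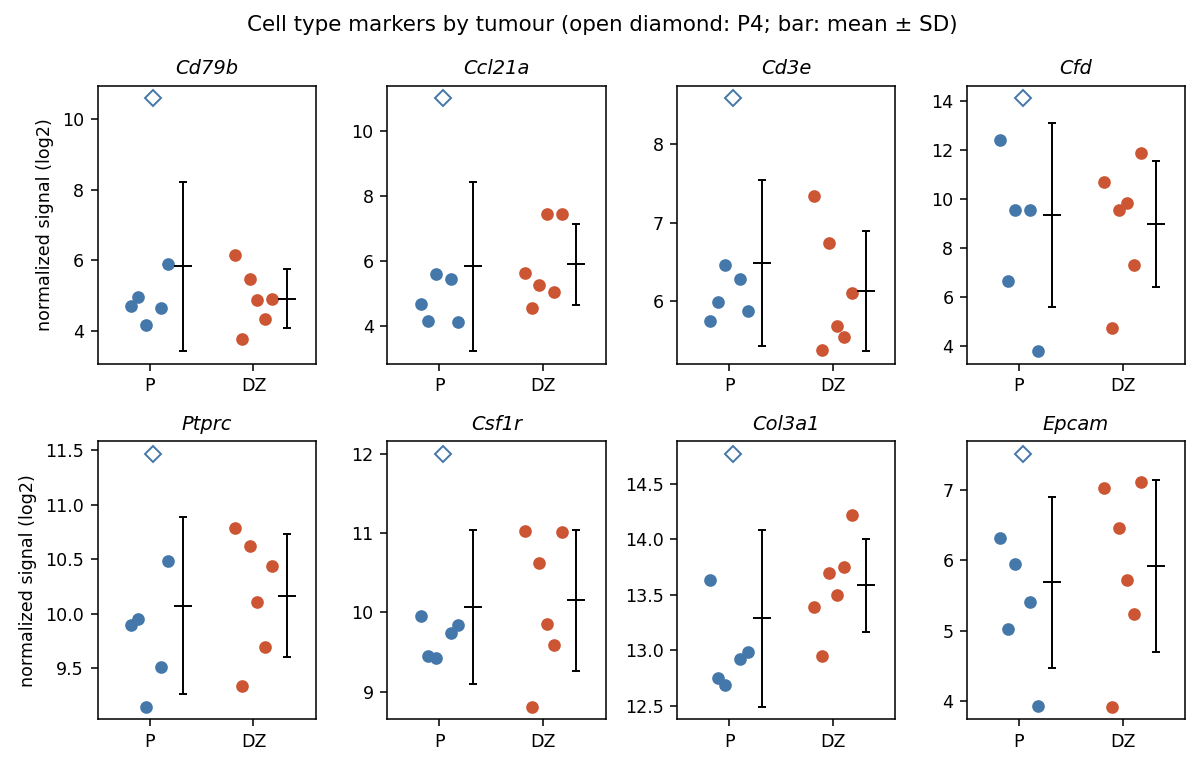
Normalized signal (log2) of 8 cell type markers in each P and DZ tumour, with P4 as an open diamond and the mean ± SD of each group as a bar (n = 6). P4 is the highest placebo tumour for all 8 markers, with Cd79b at 10.59 and Ccl21a at 11.01, and without it the P and DZ values of all 8 overlap.

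The whole panel shifted with the choice of tumours. With P4, 443 of 770 genes (57.5%) were higher in DZ, and the median difference was 0.036. Without P4, 591 genes (76.8%) were higher, and the median difference was 0.15. The median signal of a tumour over the panel was 8.31 ± 0.28 in DZ (SD, n = 6), 8.28 ± 0.41 in P (SD, n = 6) and 8.12 ± 0.14 in P without P4 (SD, n = 5). The difference between the groups had an exact two-sided permutation p of 0.918 with P4 and 0.219 without it. When each tumour was centred on its own panel median in place of the reference genes, 52.2% of genes were higher in DZ with P4 and 44.5% without it, and quantile normalization gave 49.5% and 47.3%. At an unadjusted p under 0.05 by limma, centring on the panel median gave 11 genes with P4 (5 higher in DZ) and 9 without it (5 higher). Quantile normalization gave 17 (10 higher) and 17 (9 higher). These are new counts over all 770 genes, and their overlap with the genes counted before was not computed. The counts of genes higher in DZ that follow are to be read against 57.5% and 76.8%.

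The genes with the smallest p encode a mixture of surface proteins, growth factors and secreted proteins. Lrrn3, a leucine-rich repeat membrane protein of neurons that is also found on naive T cells, had the smallest p with P4. Its signal was 4.78 to 6.30 in P (median 5.66) and 5.47 to 7.34 in DZ (median 6.65), and 4 of the 6 DZ tumours lay above every placebo tumour. The difference of 0.84 on the log2 scale (SE 0.28) is 1.78-fold, with an unadjusted p of 0.00736, and it was 0.67 (SE 0.28) without P4, which was the lowest placebo tumour for this gene. The P4 value of 4.78 lay below the background of that tumour, 5.11. With values raised to the background the difference was 0.78. Il34, a ligand of the macrophage colony-stimulating factor receptor, was 9.51 to 10.11 in P (median 9.84) and 9.81 to 10.68 in DZ (median 10.31). DZ1, DZ3 and DZ6 were the highest tumours for Il34, and DZ4 and DZ5 lay inside the placebo range. The difference was 0.41 (SE 0.15, unadjusted p = 0.0116) with P4 and 0.34 (SE 0.15) without it. Tgfb2, a ligand of the TGF-beta receptors, had the smallest p without P4. It was 5.45 to 6.14 in P (median 5.85) and 5.92 to 6.88 in DZ (median 6.21). Without P4, 5 of 6 DZ tumours lay above all placebo tumours, and the difference was 0.51 (SE 0.17, unadjusted p = 0.00673), against 0.44 (SE 0.16) with it.

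Bst2, or tetherin, an interferon-induced membrane protein that holds budding viruses to the cell, was 13.63 to 14.03 in P (median 13.83) and 13.94 to 14.40 in DZ (median 14.19), so that 5 of 6 placebo tumours lay below the lowest DZ tumour. The difference was 0.34 (SE 0.13), or 1.27-fold, with an unadjusted p of 0.0168, and 0.30 (SE 0.14) without P4. Nt5e, the ectonucleotidase CD73 that makes adenosine outside cells, was 8.42 to 10.05 in P (median 9.11) and 9.14 to 10.42 in DZ (median 9.72). Placebo tumours P1 and P4 were the lowest for Nt5e, and the difference was 0.65 (SE 0.25) with P4 and 0.51 (SE 0.25) without it. Itgb4, the integrin subunit of hemidesmosomes in epithelial cells, was 7.29 to 7.99 in P (median 7.63) and 7.78 to 8.28 in DZ (median 8.13). Its difference of 0.45 (SE 0.19) changed little without P4, at 0.46 (SE 0.20).

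Axl, a receptor tyrosine kinase that binds Gas6, was 12.34 to 12.63 in P (median 12.42) and 12.26 to 13.23 in DZ (median 12.72). DZ1 and DZ3 were the highest and DZ4 lay below all placebo tumours, with a difference of 0.31 (SE 0.14) with P4 and 0.35 (SE 0.14) without it. Il18rap, a subunit of the IL-18 receptor, was 8.09 to 8.79 in P (median 8.65) and 8.70 to 9.19 in DZ (median 8.85), with P1 far below the other placebo tumours. Its difference was 0.31 (SE 0.14) with P4 and 0.32 (SE 0.15) without it, and ran from 0.21 to 0.35 with 1 tumour left out in turn. C2, a component of the classical complement pathway, was 10.16 to 10.82 in P (median 10.51) and 10.61 to 11.34 in DZ (median 10.74), with differences of 0.33 (SE 0.15) and 0.34 (SE 0.16). Foxj1, a transcription factor of ciliated cells, had the largest difference of these 10 genes at 1.01 (SE 0.43) with P4 and 1.09 (SE 0.46) without it, but its values of 1.53 to 3.89 in P (median 3.01) and 2.92 to 4.56 in DZ (median 3.77) were not above background in any tumour.

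**Figure D2:**
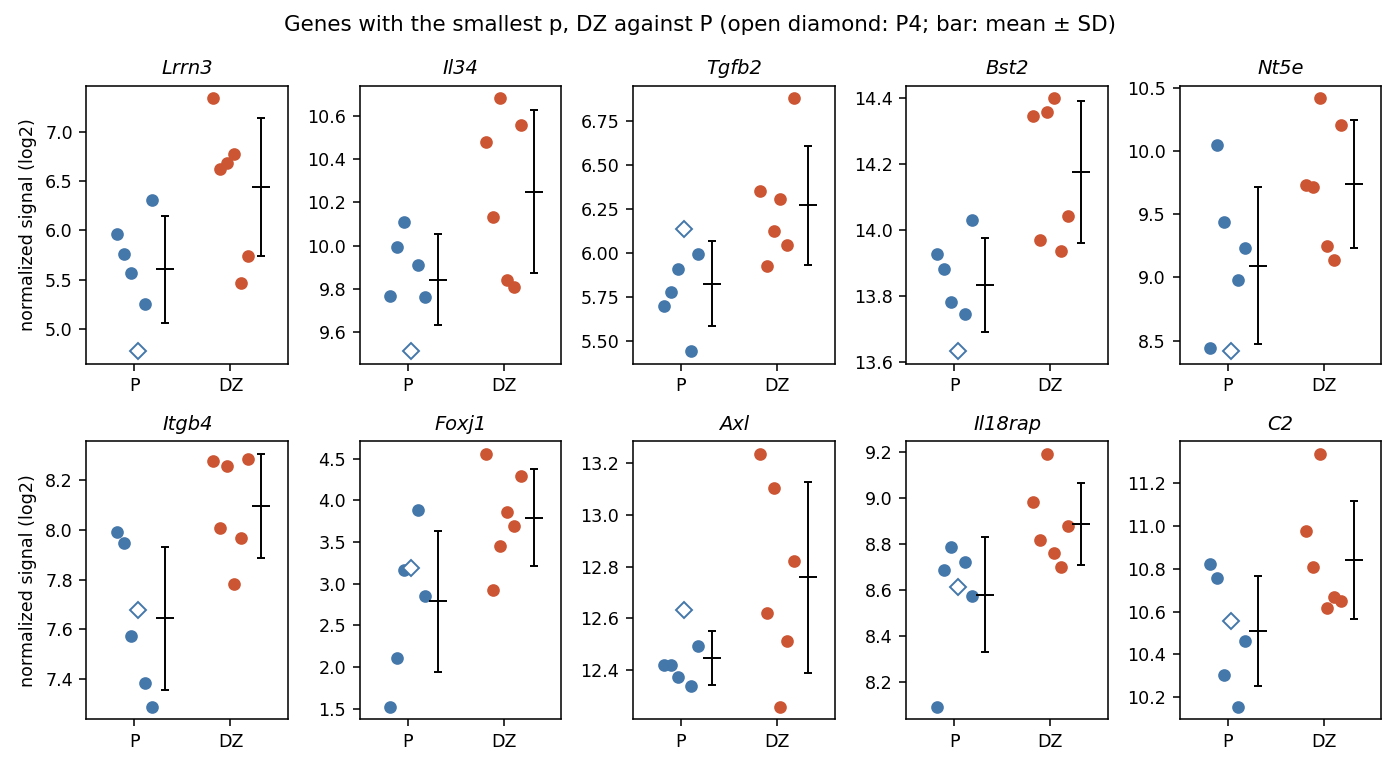
Normalized signal (log2) of the 10 genes with the smallest p when P4 was kept, in each P and DZ tumour, with P4 as an open diamond and the mean ± SD of each group as a bar (n = 6). Every gene has a higher mean in DZ, the groups overlap in each panel, and P4 is the lowest placebo tumour for Lrrn3, Il34, Bst2 and Nt5e.

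Leaving out P4 brought 5 other genes among the 10 with the smallest p, and P4 was the highest placebo tumour for each of them. Gpr183, a receptor for oxysterols that positions B cells and dendritic cells, was 7.91 in P4 and 5.24 to 5.85 in the other placebo tumours, against 5.42 to 6.81 in DZ. The difference was 0.32 (SE 0.38) with P4 and 0.72 (SE 0.28) without it. Il4ra, the receptor subunit shared by IL-4 and IL-13, was 11.24 in P4, 9.81 to 10.06 in the other placebo tumours and 9.80 to 11.22 in DZ, with differences of 0.26 (SE 0.24) and 0.48 (SE 0.20). Itga2b, the platelet integrin subunit, had a difference of 0.29 (SE 0.30) with P4 and 0.60 (SE 0.22) without it, and 0.12 with P1 left out, and was above background in 2 of 6 tumours of each group. C8a, a component of the terminal complement complex, and Ifnl2, an interferon lambda, differed by 0.60 (SE 0.35) and 0.67 (SE 0.34) with P4 and by 0.86 (SE 0.32) and 0.88 (SE 0.33) without it, and neither was above background in any tumour of P or DZ.

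Genes of DNA damage, p53 and apoptosis, the response that doxorubicin is best known for, had median differences near 0. The list as written held 24 genes, among them both promoters and inhibitors of apoptosis. Its median therefore cannot tell whether a p53 response took place. Of the 16 measured genes 8 were higher in DZ with P4 and 9 without it, and the median difference was 0.006 and 0.002. Cdkn1a, the p53 target p21, was 11.40 to 12.03 in P (median 11.73) and 11.49 to 11.90 in DZ (median 11.68), with a 95% interval of the difference from -0.26 to 0.23. Bax, a mitochondrial effector of apoptosis, had an interval from -0.16 to 0.22. Tnfrsf10b, the death receptor for TRAIL, had the smallest p of the list with P4, at 8.67 to 9.24 in P and 8.88 to 9.63 in DZ, a difference of 0.28 (SE 0.14, unadjusted p = 0.0555) with P4 and 0.29 (SE 0.15) without it. Without P4 and with each tumour centred on its panel median, 1 of the 16 genes was higher in DZ and the median was -0.18, against -0.03 for the panel, but the 20 reference genes themselves were then at -0.19. In the list of cell division genes 6 of 7 were higher with P4 and 5 without it, with medians of 0.04 and 0.10, but without P4 centring on the panel median left 1 of 7 higher with a median of -0.08. Cdk1, the kinase that drives entry into mitosis, differed by 0.01 (SE 0.23) with P4 and 0.13 (SE 0.23) without it. Abcb1a, which encodes the P-glycoprotein pump that exports doxorubicin, was 6.26 to 6.99 in P (median 6.68) and 6.55 to 7.63 in DZ (median 6.89), and DZ1 and DZ3 were the highest. Its difference was 0.41 both with P4 (SE 0.22, unadjusted p = 0.0748) and without it (SE 0.23).

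In the type I interferon response 27 of 32 genes were higher in DZ with P4 and 26 without it, with medians of 0.12 and 0.15 beside 0.036 and 0.15 for all genes, and 2 genes had an unadjusted p under 0.05 in either case, beside 1.56% and 3.51% of the panel. Without P4 this list lay at the panel's own median, and centring on the panel median turned its median to -0.03. Isg15, a ubiquitin-like modifier, ran from 10.39 to 12.10 in P and from 10.54 to 12.16 in DZ, and Irf7, the transcription factor that amplifies interferon production, from 10.81 to 11.52 and from 10.93 to 11.75, so that the tumours within a group differed more than the groups. The promoters of Bst2 and Isg15 are shown because both carry GAAA, then any 2 bases, then GAAA, the core of the element that interferon-activated factors bind, and the members shown are those of the list that the rule on named genes covers and whose promoter holds it. The windows come from RefSeq (GRCm38.p6), lie on the minus strand upstream of the gene start at chr8:71537572-71537617 for Bst2 and chr4:156200860-156200911 for Isg15, and have the matches in capitals, which overlap one another.
Bst2: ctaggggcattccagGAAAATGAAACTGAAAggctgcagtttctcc
Isg15: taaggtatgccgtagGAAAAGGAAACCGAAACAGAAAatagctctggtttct
Searched on both strands in the 250 bases before and 50 after the gene start, these letters occurred in 13 of the 24 list genes with a promoter entry (54.2%), in 50 of 566 panel genes (8.83%) and in 1079 of all 27025 genes (3.99%). The motif was chosen after the values of the list were known, and a match is a description of the letters only.

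Among danger signals and their receptors 12 of 18 genes were higher with P4 and 13 without it (medians 0.04 and 0.12), and none had an unadjusted p under 0.05. Without P4 the centred values had 8 of 18 higher and a median of -0.07. Class I antigen presentation had 12 and 13 of 16 genes higher, with medians of 0.09 and 0.27 that became 0.06 and 0.08 on centring, with 9 and 10 genes higher. H2-K1, a classical class I heavy chain, was 12.10 to 12.84 in P and 12.52 to 13.22 in DZ, a difference of 0.26 (SE 0.19) with P4 and 0.29 (SE 0.20) without it. H2-M3, a class I molecule that presents formylated peptides, differed by 0.26 (SE 0.16) with P4 and 0.35 (SE 0.16, unadjusted p = 0.0412) without it. Class II presentation turned from 4 of 11 genes higher (median -0.08) to 10 of 11 (median 0.15) when P4 was left out, and was at -0.03 when each tumour was also centred on its panel median. Cd74, the class II invariant chain, was 14.42 in P4.

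Among the 22 lists those of vessels and fibroblasts had the highest positive medians, with and without P4. With 1 tumour left out in turn, the vessel median ran from 0.14 to 0.41 and the fibroblast median from -0.034 to 0.44. Of 18 genes of blood vessels and angiogenesis 17 were higher in DZ both with and without P4, with medians of 0.27 and 0.41, and these were 0.25 and 0.23 when each tumour was centred on its panel median, with 17 and 12 genes higher. The mean level of the list was 8.49 in P4, 7.66 to 8.59 in the other placebo tumours and 8.30 to 8.78 in DZ, so that the groups overlapped. Kdr, the main VEGF receptor of endothelial cells, was 7.48 to 8.30 in P and 7.83 to 8.66 in DZ, with a difference of 0.40 (SE 0.23) with P4 and 0.50 (SE 0.24, unadjusted p = 0.0486) without it. Pecam1, an adhesion molecule of endothelial cells, was 8.06 to 9.70 in P (median 9.43) and 8.98 to 9.84 in DZ (median 9.50), and P3 and P5 were the lowest. Cdh5, the cadherin of endothelial junctions, differed by 0.28 (SE 0.26) with P4 and 0.27 (SE 0.28) without it. In fibroblasts and matrix 9 of 12 genes were higher with P4 and 11 without it, with medians of 0.27 and 0.44. On centring the medians became 0.25 and 0.26, with 9 and 8 genes higher. Col3a1, a fibrillar collagen, was 14.77 in P4, 12.69 to 13.63 in the other placebo tumours and 12.95 to 14.22 in DZ. Fap, a protease of activated fibroblasts, differed by 0.92 (SE 0.49) without P4 and by 0.29 (SE 0.63) with it. No gene of the fibroblast list had an unadjusted p under 0.05.

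Markers of epithelial and tumour cells were higher in DZ in 13 of 13 genes with P4 and in 12 without it, with medians of 0.22 and 0.24, and in 12 and 9 genes, with medians of 0.20 and 0.06, on centring. Nt5e and Itgb4 above were 2 of these genes. Epcam, the defining surface marker of epithelial cells, was low, at 3.94 to 7.50 in P and 3.93 to 7.11 in DZ, and was above background in 5 of 6 tumours of each group. Of the TGF-beta family 6 and 8 of 9 genes were higher, with medians of 0.08 and 0.12 that became 0.05 and -0.07 on centring, with 6 and 4 genes higher, and Tgfb2 alone had an unadjusted p under 0.05.

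Macrophage genes were higher in DZ in 18 of 24 cases with and without P4, with medians of 0.07 and 0.22 (0.05 and 0.03 on centring), and none had an unadjusted p under 0.05. Csf1r, the receptor for Csf1 and Il34, was 11.99 in P4, 9.42 to 9.95 in the other placebo tumours and 8.81 to 11.02 in DZ. DZ1, DZ3 and DZ6 lay above those 5 placebo tumours and DZ2 below them. Mrc1, the mannose receptor, ran from 9.25 to 12.26 in P and from 9.03 to 11.87 in DZ, while Cd68, a lysosomal protein of macrophages, ran from 11.46 to 12.41 and from 11.32 to 12.06. Clec7a, the beta-glucan receptor dectin-1, had the smallest p among the macrophage genes lower in DZ without P4, at -0.55 (SE 0.33), but was -0.28 (SE 0.36) with P4, and with 1 tumour left out in turn it ran from -0.55 to -0.093. In the RANK ligand axis, through which osteoclasts form, 7 of 9 genes were higher with P4 and 9 without it, with medians of 0.15 in both that became 0.12 and -0.03 on centring. Tnfrsf11a, which encodes RANK, was 8.55 in P4, 6.80 to 7.16 in the other placebo tumours and 6.20 to 8.20 in DZ, with 5 of 6 DZ tumours above those 5. Its difference was 0.28 (SE 0.34) and 0.55 (SE 0.31). Tnfsf11, which encodes RANK ligand, was above background in 4 of 6 P and 3 of 6 DZ tumours.

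The direction of the lymphocyte lists depended on P4. T cell genes were higher in DZ in 8 of 27 cases with it and 23 without it, with medians of -0.14 and 0.14, and on centring without P4 12 of 27 were higher. Cd3e, a chain of the T cell receptor complex, was 8.57 in P4, 5.75 to 6.46 in the other placebo tumours and 5.38 to 7.34 in DZ. Cd8a was 7.95 in P4, 5.87 to 6.44 in the others and 5.59 to 6.71 in DZ, and the difference was -0.34 (SE 0.38) with P4 and -0.04 (SE 0.34) without it. B cell and follicle genes were higher in 2 of 26 cases with P4 and in 24 without it, with medians of -0.27 and 0.22, and on centring without P4 in 15. Only 13 of these 26 genes were above background in more than 6 of the 12 tumours. Ccl21a differed by 0.06 (SE 0.83) with P4 and by 1.09 (SE 0.47, unadjusted p = 0.0315) without it, and DZ4 and DZ6 were near 7.46 while the other DZ tumours were 4.56 to 5.65.

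Among cytotoxic and NK cell genes 8 and 13 of 21 were higher, with medians of -0.05 and 0.08, and on centring 7 were higher in either case, with medians of -0.07 and -0.10. Gzmb, a protease of cytotoxic granules, was 6.82 to 8.26 in P (median 7.12) and 6.42 to 7.43 in DZ (median 7.10), and Ncr1, the NK cell receptor NKp46, had a difference of -0.51 (SE 0.37) with P4 and -0.31 (SE 0.36) without it. Neutrophil genes were higher in 6 and 10 of 17 cases (medians -0.08 and 0.04), and on centring in 5 and 6 (medians -0.10 and -0.14). Mpo, the peroxidase of their granules, was above background in no P tumour and 1 DZ tumour. In the IL-1 family 8 and 10 of 18 genes were higher, with medians of -0.04 and 0.06, and on centring 7 and 6, with medians of -0.06 and -0.12. By limma 2 of these 18 genes had an unadjusted p under 0.05 with P4 and 1 without it. The shares of the panel were 1.56% and 3.51%. Without P4 the lowest difference of this list, -0.75, was also the lowest of the panel. Il1b, the cytokine upstream of the receptor that Anakinra blocks, was 10.15 to 12.11 in P (median 11.20) and 10.34 to 11.67 in DZ (median 10.85), a difference of -0.23 (SE 0.38) with P4, which was the lowest tumour, and -0.43 (SE 0.38) without it.

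**Figure D3:**
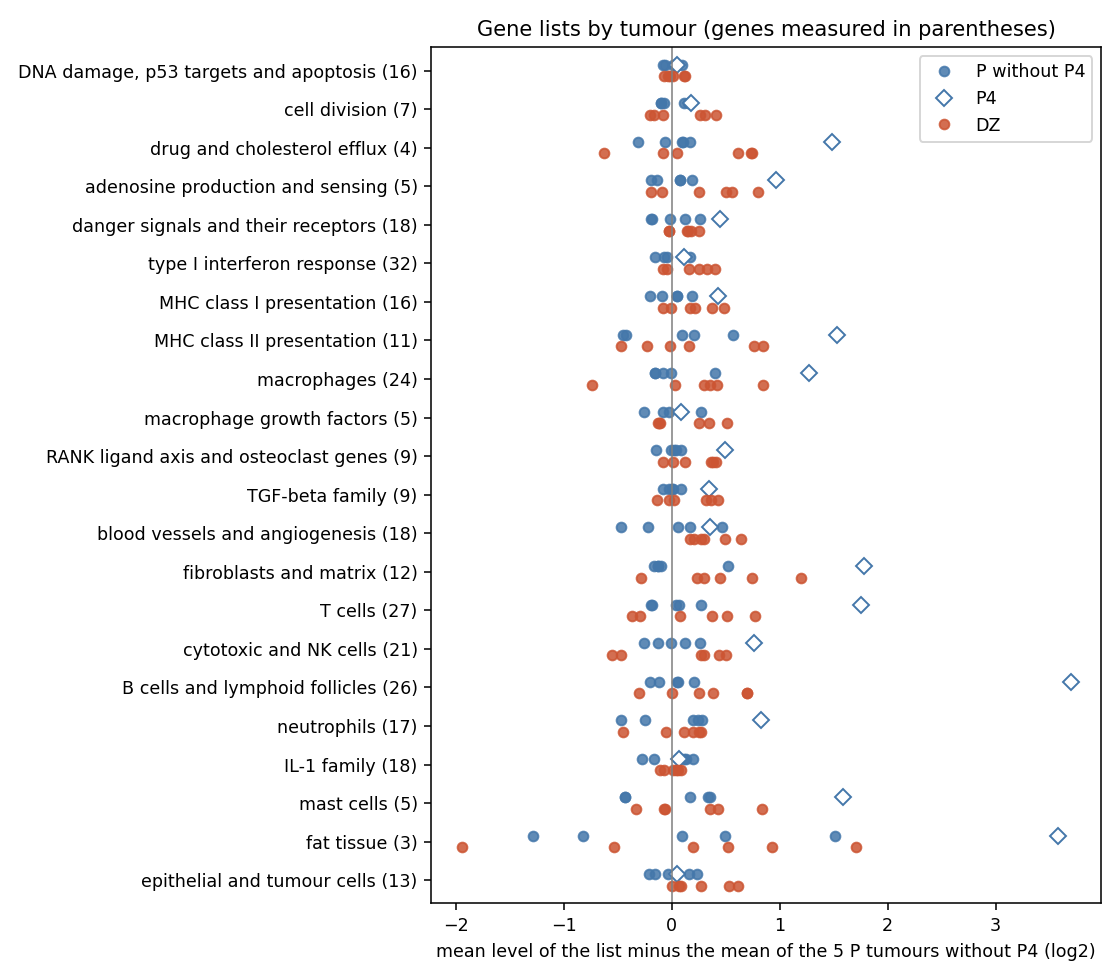
Mean level of each of 22 gene lists in each tumour, as the log2 difference from the mean of the 5 placebo tumours other than P4, with P as blue circles, P4 as an open diamond and DZ as red circles. P4 is highest for B cells and lymphoid follicles, at 8.70 against 4.81 to 5.22 in the other placebo tumours, and the P and DZ points overlap in every list.

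The DZ tumours differed among themselves. DZ1, DZ3 and DZ6 were the highest 3 of the 6 DZ tumours in 11 of 22 lists, and DZ2 was the lowest of all 12 tumours in 8 lists. Those 3 tumours had a normalization factor of 1.31 to 1.57 and a total of 882537 to 1067096 gene counts, whereas DZ2 had a factor of 0.759 and 1674738 counts. DZ4, which was not among the high tumours in those lists, had a factor of 1.32 and 1019751 counts. DZ5 had a factor of 0.806 and 1543114 counts. Of the 6 DZ tumours DZ2 was the lowest in 9 of 22 lists, DZ5 in 7, DZ4 in 4, and DZ3 and DZ6 in 1 each. The factor was 0.806 to 1.30 in P and 0.759 to 1.57 in DZ, and the background was 4.16 to 5.31 and 4.06 to 5.37 on the log2 scale. The part of the factor in the order of these tumours was not tested. Leaving out DZ1 or DZ3 lowered the number of genes at an unadjusted p under 0.05 from 12 to 7, and leaving out DZ2, DZ4 or DZ5 raised it to 20, 19 and 19.

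The same pair of drugs was also given on top of Anakinra, in tumours that are not shared with DZ and P. ADZ minus A had 0 genes at an adjusted p of 0.05 and 1 at an unadjusted p under 0.05 (0.13% of the panel), and 456 of 770 genes (59.2%) were higher in ADZ. Across genes, which are not independent replicates, DZ minus P and ADZ minus A correlated at r = 0.156 with P4 and 0.202 without it, and had the same sign in 56.0% and 61.4% of genes. Of the 12 and 27 genes at an unadjusted p under 0.05 in DZ minus P, 6 and 18 had the same sign in ADZ minus A. Tgfb2 differed by 0.27 (SE 0.17) and Nt5e by 0.23 (SE 0.27) in ADZ minus A. Lrrn3 differed by -0.12 (SE 0.30) and Il18rap by -0.18 (SE 0.14). The interaction, which tests whether the 2 differences are unequal, had 0 genes at an adjusted p of 0.05 with P4 (smallest adjusted p 0.996) and 0 without it, with 4 genes at an unadjusted p under 0.05. With P4 the 2 genes at an unadjusted p under 0.05 (0.26%) were Il18rap, at 0.49 (SE 0.20, unadjusted p = 0.0224), and Lrrn3, at 0.96 (SE 0.41, unadjusted p = 0.0287). The blood vessel list had a median of 0.00 in ADZ minus A with 9 of 18 genes higher, and the fibroblast list 0.05 with 8 of 12 higher. The epithelial list had 0.06 with 8 of 13 higher and the type I interferon list 0.02 with 19 of 32 higher. The macrophage list had -0.12 with 8 of 24 higher, and the median of all genes was 0.035. The difference between these list values was not tested.

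**Figure D4:**
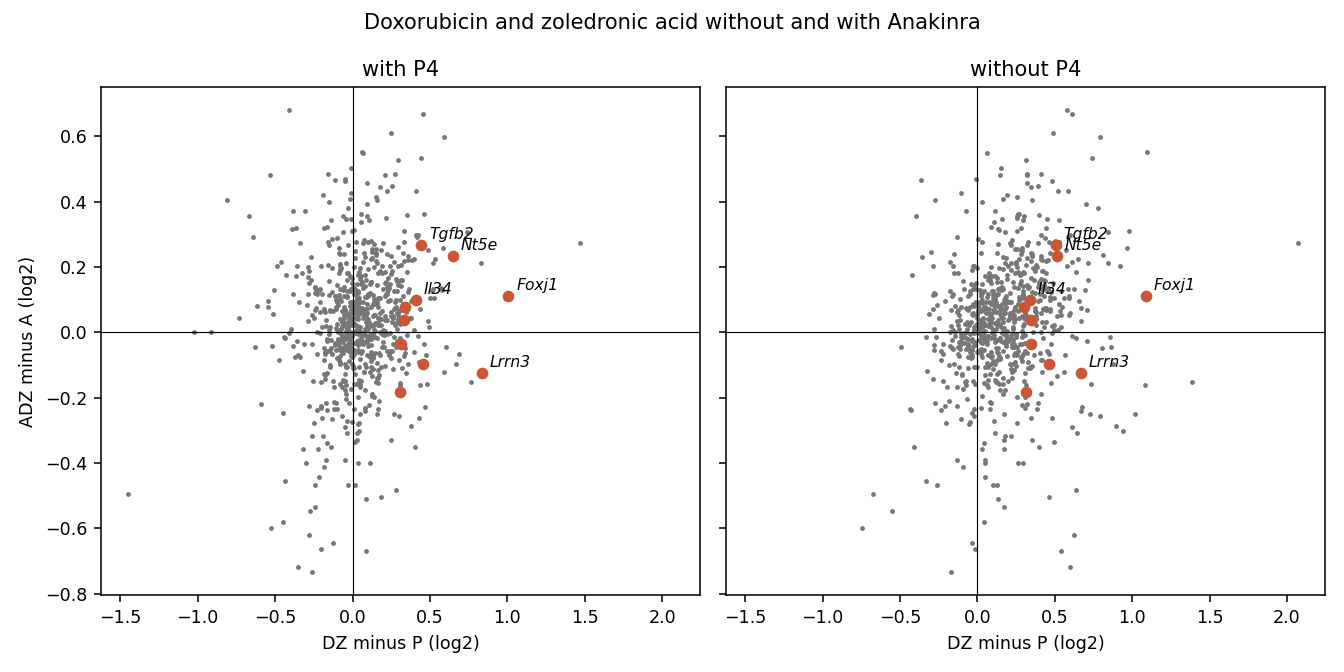
Log2 difference made by doxorubicin and zoledronic acid without Anakinra (DZ minus P, horizontal) and with it (ADZ minus A, vertical) for each of the 770 genes, with P4 on the left and without it on the right, and the 10 genes with the smallest p as red points. The correlation across genes is 0.156 and 0.202, and Lrrn3 is at 0.84 on the horizontal axis of the left panel and -0.12 on the vertical axis.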

How the data were processed

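RNA of 23 tumours was counted on the nCounter panCancer mouse immune panel. The authors processed the counts with nSolver and Advanced Analysis, and the deposited values are log2 signals with 1 column per tumour; the sources do not state whether background was subtracted. The reference genes average 11.4 in every tumour, so each tumour was scaled by a single factor before log2 was taken, and removing that factor gave 882537 to 1677295 gene counts per P or DZ tumour (whole within 0.05 apart from exact zeros). A gene counted as above background where it exceeded the negative controls' mean in that tumour by over 2 SD.

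The table holds 750 endogenous and 20 reference genes. All 23 tumours entered 1 linear model per gene (limma 3.58.1, R 4.3.3), with moderated two-sided tests and p-values adjusted by Benjamini and Hochberg's method over 770 genes, with and without P4, and the script was tested on simulated data. No filter on low values was applied. The 73 genes covered by the naming rule were those called (0), the 10 with the smallest p with and without P4, 27 key genes (another is not reported here), and in each of 22 lists the gene with the smallest p among those higher and those lower without P4. The members, lists and rule were chosen with earlier results of these data known. Alternatives were another fit, centring, quantile normalization, a pseudocount of 20, a filter at a mean of 20 normalized counts, a background floor, an intensity trend, voom on recovered counts, a replicate block and leaving out each tumour. The labels give no batch. Figures were drawn with matplotlib 3.10.9.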

Additional observations from a re-analysis of the deposited data

Results flagged for a closer look

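In groups of 6 tumours a single tumour far from the others was looked for by Dixon's test, which flags about 1 in 20 groups by chance. Over the panel it marked 141 of 770 genes in P, 131 of them for P4, and 33 in DZ. Among the 73 named genes it marked 15, 13 of them for P4. P4 was 10.59 for Cd79b (nearest placebo tumour 5.90), 11.01 for Ccl21a (5.60) and 7.24 for Cr2 (4.69), genes of B cells and lymphoid follicles. It was 8.57 for Cd3e, 7.95 for Cd8a, 6.95 for Ncr1 and 7.91 for Gpr183. Among other genes it was 11.99 for Csf1r, 10.65 for Cd84, 11.24 for Il4ra, 8.55 for Tnfrsf11a, 8.38 for Fap and 7.83 for Pparg. Of the 22 lists 6 were marked, all for P4, with mean levels of 8.70 for B cells and lymphoid follicles, 7.61 for T cells, 11.16 for fibroblasts and matrix, 10.91 for drug and cholesterol efflux, 8.29 for adenosine production and sensing and 9.01 for the RANK ligand axis.

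The other 2 genes were Il18rap, at 8.09 in P1 against 8.57 in the nearest placebo tumour, and Gzmb, at 8.26 in P6 against 7.34. Il18rap is among the 10 genes with the smallest p, and no named gene was marked in DZ.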

How the results depend on the processing

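No gene was called at an adjusted p of 0.05 in any fit, alternatives and left-out tumours included, so that the counts at an unadjusted p are the ones that moved. Leaving out 1 tumour gave 7 to 27 such genes, and 7 to 27 of them higher in DZ, with a median difference of -0.012 to 0.15. Counted anew over all genes, centring on the panel median gave 11 such genes with P4 (5 higher in DZ) and 9 without it (5 higher). Quantile normalization without P4 gave 17 (9 higher), against 27 in the main fit. The labels do not say whether the replicate numbers pair the tumours. Of the same-numbered pairs of P and DZ, 1 of 6 had deviations correlated above 0.1 (-0.63 to 0.76). In the same values 1 of 6 DZ tumours correlated best with its own number. So few correlations cannot settle whether the tumours were paired. With the replicate block there were 11 genes with P4 and 38 without it. The 15 genes with the smallest p kept the direction of their difference in all 444 values under the alternatives, with a smallest adjusted p of 0.763. These 15 were picked for their small p in the same tumours, so a kept direction is no separate support. Over all 73 named genes, those 15 included, the direction turned in 125 of 2182 values. None was past the adjusted threshold, and the cause was not tested. With P4, centring on the panel median turned the difference to -0.013 for Cdk1 and -0.0080 for Cd44. With P4, quantile normalization turned the difference to -0.055 for Bax, -0.057 for Cdk1, -0.054 for Dusp6, -0.0067 for Myc, -0.15 for Ccl21a and -0.12 for Cd44. With P4, the background floor turned the difference to 0.015 for Foxp3, 0.21 for Mpo and -0.065 for Cdk1. With P4, a pseudocount of 20 turned the difference to -0.12 for Ccl21a. Without P4, centring on the panel median turned the difference to -0.082 for Cd68, -0.12 for Cd3e, -0.14 for Cd79b, -0.030 for Mpo, -0.15 for Bax, -0.021 for Fas, -0.051 for Cdk1, -0.034 for Irf7, -0.099 for Cd74 and -0.070 for Dusp6. Without P4, quantile normalization turned the difference to -0.16 for Cd3e, -0.046 for Foxp3, -0.22 for Cd79b, -0.084 for Mpo, -0.12 for Bax, -0.048 for Fas, -0.14 for Cdk1, -0.064 for Cd74, -0.0085 for Tnfsf11, -0.075 for Dusp6 and -0.038 for Kit. Without P4, the background floor turned the difference to -0.033 for Cd79b, 0.19 for Cr2 and 0.027 for Cd44. Without P4, the replicate block turned the difference to 0.026 for Myc, 0.0040 for H2-DMb1 and 0.029 for Cd44. With 1 tumour left out in turn, the difference ran from -0.097 to 0.37 for Ptprc, from -0.087 to 0.10 for Cd68, from -0.089 to 0.47 for Csf1r, from -0.15 to 0.51 for Mrc1, from -0.60 to 0.060 for Cd3e, from -0.36 to 0.26 for Foxp3, from -1.25 to 0.040 for Cd79b, from -0.19 to 0.15 for Mpo, from -0.075 to 0.052 for Cdkn1a, from -0.0080 to 0.057 for Bax, from -0.024 to 0.19 for Fas, from -0.14 to 0.16 for Cdk1, from -0.0012 to 0.35 for Isg15, from -0.38 to 0.085 for Cd74, from -0.21 to 0.22 for Tnfsf11, from -1.46 to 0.60 for Cfd, from -0.13 to 0.62 for Epcam, from -0.029 to 0.14 for Myc, from -0.18 to 0.088 for Psmb7, from -0.18 to 0.16 for H2-DMb1, from -0.43 to 0.071 for Csf2, from -0.23 to 0.047 for Smad2, from -0.19 to 0.44 for Sele, from -0.072 to 0.92 for Fap, from -0.40 to 0.020 for Mmp9, from -0.28 to 1.09 for Ccl21a, from -0.039 to 0.34 for Ceacam1 and from -0.040 to 0.076 for Cd44. The precision is set by 6 tumours a group: the median half-width of the 95% interval was 0.57 with P4 and 0.54 without it, and genes near the background carry little signal to compare.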
